A study of Rattus norvegicus with 8 samples.

Results

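Metallothioneins hold zinc in the cytosol, and zinc transporters of the Slc30 family carry it out of the cytosol, either across the cell membrane or into vesicles. The 6 genes described here, Mt1a, Mt3, Slc30a1, Slc30a2, Slc30a3 and Slc30a4, were chosen by the gene name that the array files give to each probe, and every probe with such a name is shown. They have 8 of the 41012 probes and 6 of the 18361 gene names on the array.

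RNA was measured in neurons of hippocampal field CA3, collected by laser capture from frozen sections of male Sprague-Dawley rats, whose age the labels do not give. Naive rats had no treatment, Sham rats went through a sham injury, and the other rats had a moderate fluid percussion injury, in which a pulse of fluid strikes the covered brain surface, with brains removed 24 hours later. From injured brains, neurons stained by Fluoro-Jade, a dye of degenerating neurons, made up the Dying pools, and unstained neurons next to them the Surviving pools, with about 600 neurons from several rats in a pool. Each of the 4 groups has 2 arrays. The labels do not name the rats of a pool, so whether a Surviving and a Dying pool share rats is unknown. They name a pair of RNA amplification kits without saying which array had which.

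The Naive and Sham arrays were on 1 slide and the Surviving and Dying arrays on another, which had its own scan time and image extraction protocol. In each comparison of injured with uninjured neurons, injury and slide therefore cannot be told apart, while Surviving against Dying and Sham against Naive each lie within a slide. The slides differed in brightness. The median signal of an array was 28.8 and 22.7 on the Naive arrays, 16.5 and 16.4 on the Sham, 52.4 and 48.3 on the Surviving and 19.4 and 53.0 on the Dying arrays. The array software marked 22449 and 22391 probes as well above background on the Naive arrays, 20911 and 20193 on the Sham, 29347 and 27081 on the Surviving and 24064 and 27997 on the Dying arrays. So by median signal 3 of the 4 injured arrays were brighter than every uninjured array, and Dying replicate 1 was not. By the count of probes well above background, all 4 injured arrays were higher than every uninjured array. The Dying replicates also lay farther apart than those of the other groups, with an SD of the log2 difference between replicates of 1.21 over 15254 probes, against 0.69 in Naive, 0.49 in Sham and 0.59 in Surviving.

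Zinc is both a structural metal of many proteins and, in the hippocampus, a transmitter-like ion: the mossy fibres that end on CA3 neurons store zinc in their synaptic vesicles beside glutamate. Free zinc in the cytosol is buffered by metallothioneins, small cysteine-rich proteins. When zinc rises, the transcription factor Mtf1 binds metal response elements and turns on metallothionein genes and the exporter gene Slc30a1, and metallothionein genes also answer to glucocorticoids. Importers of the Slc39 family work in the opposite direction to Slc30 proteins and bring zinc into the cytosol.

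The promoters of 4 members are printed because they show which of these genes carry the letters of a metal response element. All 6 members had an entry in the RefSeq promoter table of build GRCr8, where Mt1a is listed as Mt1. Each window runs from 250 bases before to 50 bases after the gene's start and is written 5′ to 3′ on the gene's strand. Capitals mark matches to TGCACNC or TGCGCNC on either strand, motifs that differ at 1 base, so no stretch matches both on the same strand. The windows are chr19:10832926-10833225 on the - strand for Mt1, chr19:10856031-10856330 on the - strand for Mt3, chr13:106021769-106022068 on the + strand for Slc30a1 and chr3:130228839-130229138 on the - strand for Slc30a4.
Mt1: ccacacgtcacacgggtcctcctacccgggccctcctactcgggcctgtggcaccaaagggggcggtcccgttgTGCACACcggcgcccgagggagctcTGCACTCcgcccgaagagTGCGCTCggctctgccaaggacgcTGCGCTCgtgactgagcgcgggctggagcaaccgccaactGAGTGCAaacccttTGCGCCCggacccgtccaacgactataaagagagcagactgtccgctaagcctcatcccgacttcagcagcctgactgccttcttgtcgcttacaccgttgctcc
Mt3: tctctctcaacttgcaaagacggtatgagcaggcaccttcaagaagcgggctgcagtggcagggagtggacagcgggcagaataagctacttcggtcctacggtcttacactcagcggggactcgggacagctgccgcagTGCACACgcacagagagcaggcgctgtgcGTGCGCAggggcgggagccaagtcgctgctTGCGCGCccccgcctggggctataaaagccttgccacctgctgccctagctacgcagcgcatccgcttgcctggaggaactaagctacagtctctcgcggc
Slc30a1: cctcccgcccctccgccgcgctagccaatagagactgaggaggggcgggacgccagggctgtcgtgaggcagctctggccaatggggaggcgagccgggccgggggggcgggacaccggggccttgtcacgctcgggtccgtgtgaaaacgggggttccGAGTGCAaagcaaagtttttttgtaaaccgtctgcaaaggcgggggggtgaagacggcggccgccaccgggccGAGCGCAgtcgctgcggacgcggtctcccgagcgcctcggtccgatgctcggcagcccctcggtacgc
Slc30a4: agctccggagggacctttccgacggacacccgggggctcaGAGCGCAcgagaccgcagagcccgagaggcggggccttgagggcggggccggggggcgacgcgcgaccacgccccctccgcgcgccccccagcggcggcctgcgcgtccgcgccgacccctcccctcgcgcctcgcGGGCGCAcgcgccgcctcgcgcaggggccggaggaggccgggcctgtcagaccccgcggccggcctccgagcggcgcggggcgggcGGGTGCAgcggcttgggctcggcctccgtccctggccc

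The Mt1 window held 6 matches, that of Mt3 3, that of Slc30a1 2 and that of Slc30a4 3. Slc30a2 has 2 windows in the table, with 3 and 0 matches, and the window of Slc30a3 had 0. Of all 33469 rat promoter windows of this length, 24.2% held at least 1 match, 6.36% at least 2, 1.68% at least 3 and 0.123% at least 5. Mt1 is thus among the few windows that are dense in these letters. A match is a description of the sequence and not a site shown to be bound.

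Levels below are log2 of a probe's background-subtracted signal over the median signal of its array, so that 0 is the middle probe of an array, and the level of a probe is never set against that of another probe. A difference was called where limma gave a Benjamini-Hochberg adjusted p under 0.05 over all probes tested in that comparison. A probe was tested where both arrays of any group compared marked it well above background or, for injured against uninjured, where at least 4 of the 8 arrays did. With 2 arrays a group, their number limits the precision. On this scale the median of all tested probes was itself -0.39 in injured against uninjured arrays, and other scalings moved it by 0.13 to 0.77, so each leading difference is also given with that median taken away.

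Mt1a codes for a metallothionein that most cell types can induce, and it gave the widest rise among the members. Its transcript probe, A_43_P13297, read 5.31 and 6.67 on the Naive arrays, 6.39 and 5.79 on the Sham, 8.77 and 7.74 on the Surviving and 8.38 on Dying replicate 2, while its spot on Dying replicate 1 was marked non-uniform and left out. The 3 injured arrays with a value were above all 4 uninjured arrays, and Naive and Sham overlapped. The mean was 6.04 ± 0.61 (SD, n = 4) in uninjured and 8.30 ± 0.52 (SD, n = 3) in injured arrays. Mt1a rose in injured neurons by a log2 difference of 2.28 (SE 0.52, 95% interval 1.05 to 3.50), which is 4.85-fold, with a limma adjusted p of 0.0116 and 3 of 3 injured arrays higher. Relative to the median probe the difference was 2.67. The call was lost with a normexp background correction, where the difference was 3.996 and the limma adjusted p 0.344 (0.00114 to 0.344 over 21 alternatives), and that setting called 0 of all 26027 probes tested in this comparison, with 3470 at an unadjusted p under 0.05. A second Mt1a probe, A_44_P308416, was drawn from an expressed sequence tag, was well above background on 2 of 8 arrays at levels from -4.40 to -0.16, and was tested in no comparison.

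Mt3 codes for the metallothionein of the brain, found in neurons that keep zinc in vesicles and in astrocytes, and it answers weakly to metals. Its probe, A_44_P1008888, read 10.82 and 11.41 on the Naive arrays, 11.59 and 11.44 on the Sham, 11.53 and 11.75 on the Surviving and 13.04 and 11.55 on the Dying arrays. All 8 arrays were well above background, the groups overlapped in the injured comparison, and Dying replicate 1 stood above the other 7 arrays. Before division by the array median, the signal was 154721 and 166196 on the Surviving and 163363 and 159038 on the Dying arrays. The medians of those Dying arrays were 19.4 and 53.0, so the height of Dying replicate 1 comes with its low median. The log2 difference between injured and uninjured arrays was 0.65 (SE 0.41, 95% interval -0.30 to 1.60) with 2 of 4 injured arrays above all uninjured ones, and it was not called (limma adjusted p 0.228). Mt3 depended on the scaling: the difference was 1.25 (limma adjusted p 0.0268) with 75th percentile scaling, 0.98 (0.0190) with quantile normalization and 1.42 (0.0163) when arrays were scaled to the probes above background on all 8 arrays. Without Dying replicate 2 it was 1.02 (limma adjusted p 0.0379). Over its 22 alternatives the adjusted p ran from 0.00408 to 0.539.

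Slc30a1 is the exporter that carries zinc across the cell membrane and, like Mt1a, a known target of Mtf1. Its probe, A_44_P529562, read 1.75 and 2.63 on the Naive arrays, 3.08 and 3.23 on the Sham, 2.19 and 1.54 on the Surviving and 2.14 and 1.95 on the Dying arrays. The Sham arrays were the highest and did not overlap any other group, whereas Naive, Surviving and Dying overlapped. The injured minus uninjured log2 difference was -0.72 (SE 0.36, 95% interval -1.54 to 0.10) with 1 of 4 injured arrays below all uninjured ones, and it was not called (limma adjusted p 0.133). It turned to 0.05 when arrays were scaled to the probes above background on all 8 arrays. Slc30a1 thus gave no called difference beside the rise of Mt1a, although both carry matches to the motif shown above.

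Slc30a4 carries zinc into endosomes and other vesicles, and it was the member that fell. Its probe, A_44_P312371, read 2.61 and 3.09 on the Naive arrays, 3.55 and 3.07 on the Sham, 2.27 and 1.25 on the Surviving and 0.74 and 0.33 on the Dying arrays. Every injured array was below every uninjured array, and both Dying arrays were below both Surviving arrays. The group means, from high to low, were 3.31 ± 0.34 in Sham, 2.85 ± 0.35 in Naive, 1.76 ± 0.72 in Surviving and 0.53 ± 0.29 in Dying (SD, n = 2 each). Sham and Naive, neighbours in that order, overlapped. Slc30a4 fell by 1.93 on the log2 scale in injured neurons (SE 0.37, 95% interval -2.79 to -1.07), a 3.82-fold decrease, with a limma adjusted p of 0.00478 and 4 of 4 injured arrays lower. Relative to the median probe the difference was -1.54. With normexp the difference was -0.65 and the call was lost (limma adjusted p 0.512, and 0.00135 to 0.512 over 22 alternatives). In these pools, fewer cells that hold a transcript and less of it per cell cannot be told apart.

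Slc30a3 loads zinc into synaptic vesicles, and glutamate neurons of the forebrain are known for it. Its probe, A_44_P306524, read 1.02 and 1.60 on the Naive arrays, 1.58 and 2.23 on the Sham, 2.06 and 2.11 on the Surviving and 3.65 and 0.76 on the Dying arrays. The Dying replicates were the highest and the lowest of the 8 arrays, so the Dying group spanned the others. The injured minus uninjured log2 difference was 0.54 (SE 0.61, 95% interval -0.87 to 1.94), with 1 of 4 injured arrays above all uninjured ones and no call (limma adjusted p 0.501). A single array decided its direction: the difference was -0.19 without Dying replicate 1 and 1.26 (limma adjusted p 0.0220, and 0.0220 to 0.723 over 22 alternatives) without Dying replicate 2.

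Slc30a2 carries zinc into vesicles, best known in secretory tissue such as the mammary gland. Only Dying replicate 1 had probe A_44_P1004790 well above background, at 0.06, and it read -2.73 to -2.02 on the other 7 arrays. Probe A_42_P663722 read -2.88 and 2.05 on the Naive arrays, -2.34 and -2.14 on the Sham, -0.97 and 0.63 on the Surviving and 3.36 and -3.93 on the Dying arrays, and was well above background on 4 of these arrays. Replicates of Naive, of Surviving and of Dying fell on opposite sides of the array median, so this probe does not place Slc30a2 in any group. Its injured minus uninjured log2 difference was 1.10 (SE 1.60, 95% interval -2.59 to 4.79; limma adjusted p 0.603), with 1 of 4 injured arrays above all uninjured ones.

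**Figure D1:**
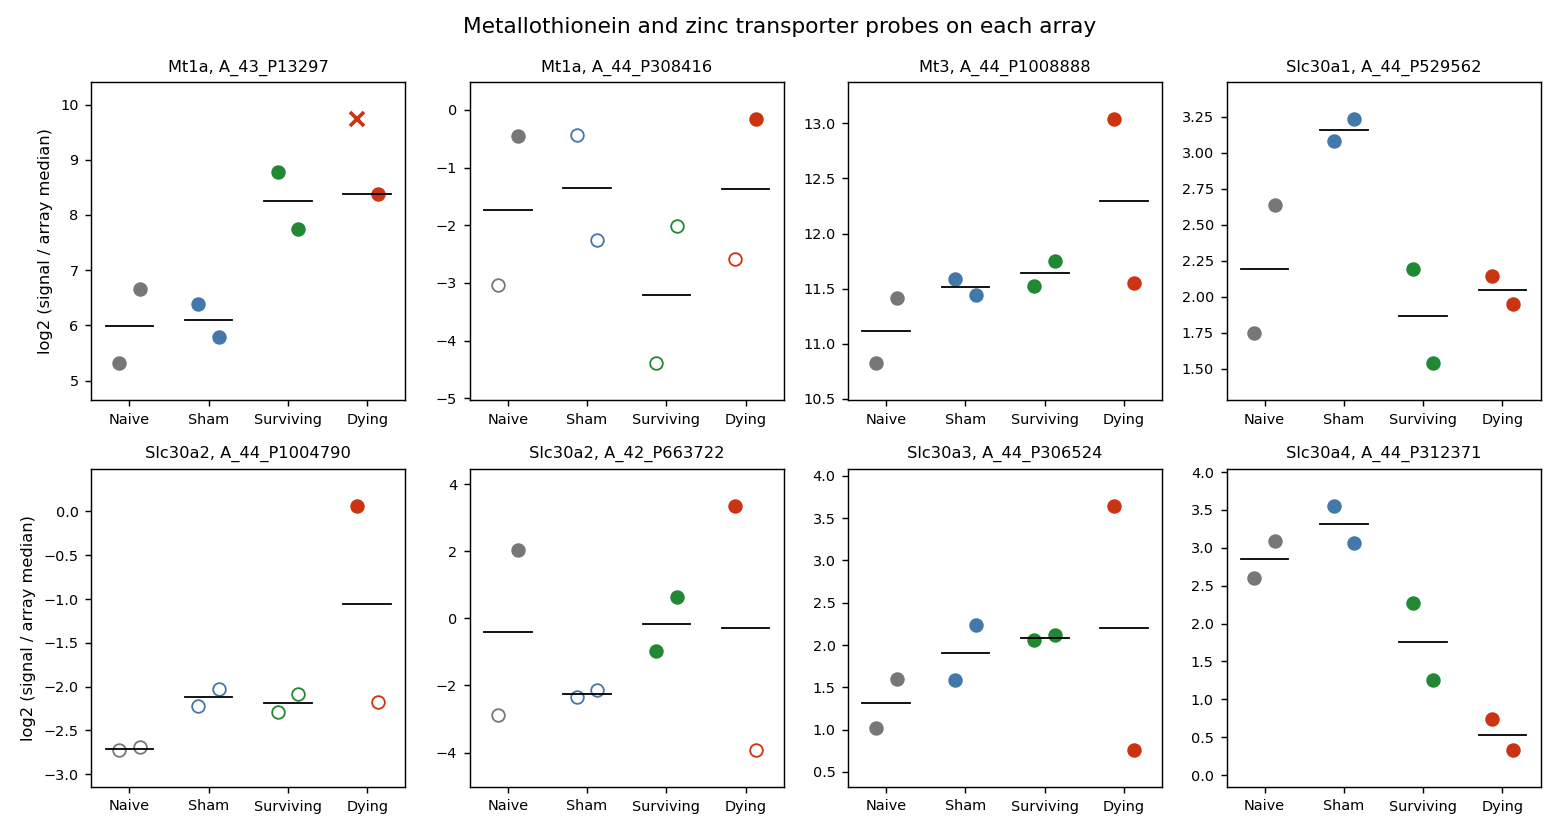
Level of each member probe (log2 of signal over the array median, vertical axis) on the 8 arrays by group. Filled points are well above background, open points are not, bars are group means, and the cross is the non-uniform Mt1a spot at 9.74, which was left out; Mt1a is higher in the injured groups and Slc30a4 steps down from Sham to Dying.

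Injured against uninjured pools asks what differs after injury whatever the state of the neuron. Of the 6 member probes tested, 1 rose (Mt1a) and 1 fell (Slc30a4), 2 of 6 in all, where 44.4% of all 26027 tested probes were called. By direction, 16.7% of all tested probes rose and 27.7% fell. Every injured array lay above every uninjured array for 15.2% of tested probes, as for Mt1a over its measured arrays, and below for 23.7%, as for Slc30a4. The members' share is near that of all probes, so these calls are a description of each gene and not of the family. The median difference over the 6 probes was 0.59, where that over all tested probes was -0.39.

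Surviving against Sham asks what differs in neurons that lie in injured tissue without degenerating. No member was called by limma (0 of 6 tested, where 17.8% of 26910 probes were), and 3 of the 6 had an unadjusted p under 0.05. The log2 difference was 2.16 for Mt1a (SE 0.65, limma adjusted p 0.0604, 2 of 2 Surviving arrays above both Sham arrays), -1.55 for Slc30a4 (SE 0.53, adjusted p 0.0747, 2 of 2 below) and -1.29 for Slc30a1 (SE 0.50, adjusted p 0.106, 2 of 2 below). In all 3 of these the groups did not overlap. Mt3 and Slc30a3 differed by 0.12 and 0.18. The Slc30a2 probe A_42_P663722 differed by 2.07 with limma adjusted p 0.531, and since neither Sham array was well above background, it bounds the difference only to at least 1.04-fold. The Mt1a difference passed the threshold under 11 of 22 alternative settings, among them 75th percentile scaling at 2.94 (limma adjusted p 0.0161, and 0.0101 to 0.531 over all 22).

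Dying against Sham asks the same of neurons that stain as degenerating, and it shares the Sham arrays with the comparison before. Slc30a4 fell by 2.78 on the log2 scale (SE 0.53, 95% interval -3.98 to -1.57), 6.85-fold, with a limma adjusted p of 0.00553 and 2 of 2 Dying arrays lower. It was the only call among 5 member probes tested, where 43.3% of 25629 probes were called. Without Sham replicate 1 the Slc30a4 difference was -2.53 and the limma adjusted p 0.0601, and with normexp they were -1.45 and 0.523, with 0.00221 to 0.523 over 22 alternatives. Mt1a differed by 2.29 (SE 0.79, limma adjusted p 0.0505) from the single Dying array with a value, which was above both Sham arrays. The limma fit pools the spread over groups, so that lone array is assumed to vary like the others. With the non-uniform spot of Dying replicate 1 included, the Mt1a difference was 2.97 (limma adjusted p 0.0124, and 0.00367 to 0.523 over 21 alternatives). Slc30a1 differed by -1.11 (limma adjusted p 0.102, 2 of 2 lower), Mt3 by 0.78 (adjusted p 0.289) and Slc30a3 by 0.29 (adjusted p 0.789), none of them called.

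Surviving against Dying is the comparison the study was built on, and it lies within a slide. No member was called (0 of 6 tested by limma, 1 at an unadjusted p under 0.05), and 0.00% of all 27404 tested probes were, with 5774 at an unadjusted p under 0.05. The member with an unadjusted p under 0.05 was Slc30a4, higher in Surviving by a log2 difference of 1.23 (SE 0.53, 95% interval 0.01 to 2.44, limma adjusted p 0.235), with 2 of 2 Surviving arrays above both Dying arrays. For the other members the intervals reach well to both sides of 0: Mt1a differed by -0.12 (95% interval -2.02 to 1.77), Mt3 by -0.66 (-2.00 to 0.68), Slc30a1 by -0.18 (-1.35 to 0.98) and Slc30a3 by -0.11 (-2.08 to 1.85). Those widths leave room for severalfold differences in either direction for Mt1a and Slc30a3. Slc30a2 differed by 0.11 (-5.05 to 5.27).

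Sham against Naive asks what the surgery alone goes with. Again 0 of 5 member probes tested were called by limma, with 0 at an unadjusted p under 0.05, and 0.00% of 20739 probes were called, with 1014 at an unadjusted p under 0.05. Slc30a1 and Mt3 were each higher on both Sham arrays than on both Naive arrays, by log2 differences of 0.96 (SE 0.49, limma adjusted p 0.851) and 0.40 (SE 0.57, adjusted p 0.875). The median of all tested probes was 0.40 higher in Sham, and against it these differences were 0.56 and -0.01. The others were 0.10 for Mt1a, 0.60 for Slc30a3 and 0.46 for Slc30a4, and those of Mt1a and Mt3 changed sign under other scalings.

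**Figure D2:**
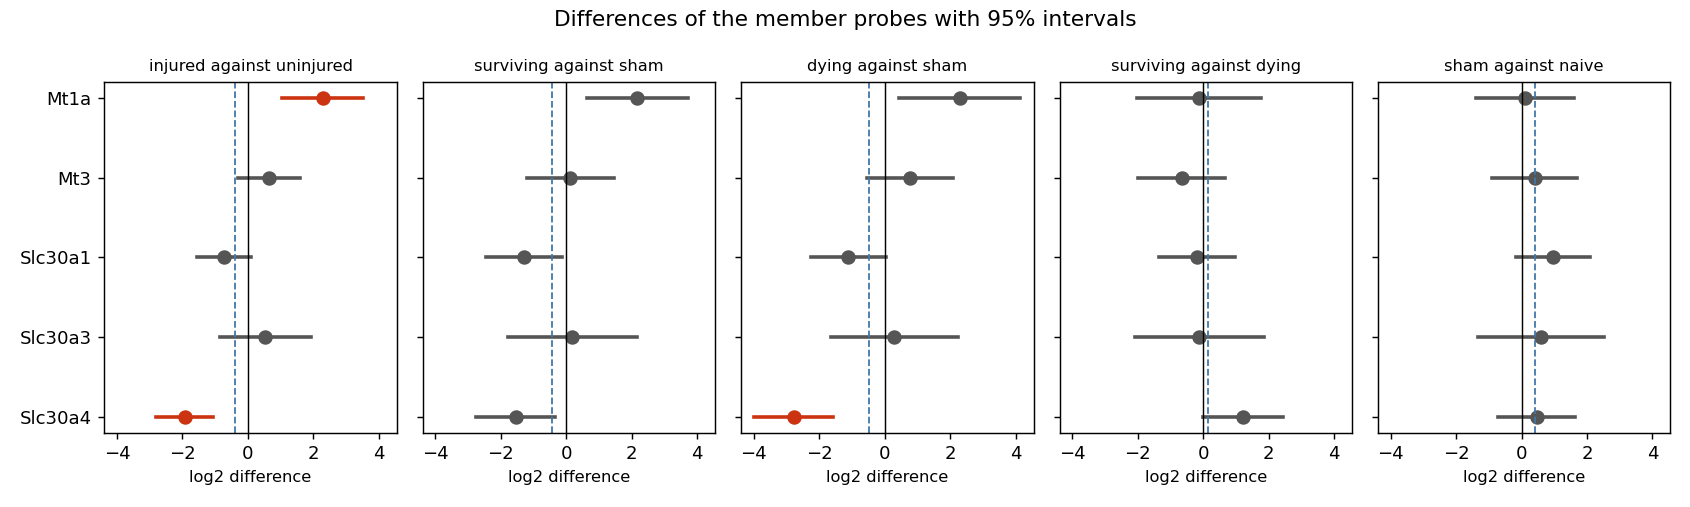
Log2 difference of the tested member probes except that of Slc30a2, whose intervals are far wider, in the 5 comparisons, with 95% intervals; red points are past the threshold and the dashed line is the median of all tested probes. The called points are Mt1a at 2.28 and Slc30a4 at -1.93 in injured against uninjured arrays and Slc30a4 at -2.78 in Dying against Sham.

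Other genes of zinc handling were read from lists by their brightest probe. Among the 6 other Slc30 exporters, 4 were tested in injured against uninjured arrays, 0 rose and 2 fell, with a median difference of -1.31, where 27.7% of all tested probes fell. Slc30a5 and Slc30a6, partners that load zinc into the secretory pathway, fell by 2.53 (SE 0.41, limma adjusted p 0.00253) and 2.39 (SE 0.44, adjusted p 0.00411), with 4 of 4 injured arrays lower for each. All 3 Slc30a5 probes pointed the same way, with differences of -1.70, -2.15 and -2.53. Slc30a7, also of the secretory pathway, and Slc30a9 differed by 0.80 (limma adjusted p 0.211) and -0.24 (0.616) and were not called, and Slc30a8 and Slc30a10 were above background on no array. In Surviving against Sham 1 of 4 fell, Slc30a5, a call that passed the threshold under 13 of 22 alternatives and was lost with 75th percentile scaling and quantile normalization. In Dying against Sham 2 of 4 fell, with 0 rising in either comparison. Of all tested probes, 3050 of 26910 fell in the former and 7338 of 25629 in the latter.

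Of the 14 Slc39 importers on the array, 10 were tested in injured against uninjured arrays, 4 rose and 0 fell, with a median of 0.82. Of all tested probes 44.4% were called and 16.7% rose, and whether importers differ from exporters was not tested. Slc39a11 read, by its brightest probe, -1.56 and -3.04 on the Naive arrays, -1.54 and -2.19 on the Sham, 1.85 and 2.24 on the Surviving and 3.44 and 2.26 on the Dying arrays. It went from well above background on none of the uninjured arrays to all 4 injured ones, at least 7.84-fold higher by that probe (limma adjusted p 0.000489, 4 of 4 higher). Its other probe, A_44_P231439, differed by 1.99, less than that bound, so the size of the rise is uncertain. Slc39a5 was likewise at least 2.85-fold higher (limma adjusted p 0.00402, 4 of 4 higher), again with no uninjured array well above background. Slc39a11 and Slc39a5 met the filter of this comparison through the 4 injured arrays alone, so their adjusted p values lean on the group where they are high. Slc39a4 rose by 1.34 (SE 0.43, limma adjusted p 0.0353, 3 of 4 above all uninjured) and passed the threshold under 13 of 22 alternatives. Slc39a1 was called as higher (limma adjusted p 0.0471, 2 of 4 above all uninjured), but only 1 of its 4 uninjured arrays was well above background, so the size of that difference is not given, and it passed under 10 of 22. For Slc39a1, Slc39a5 and Slc39a11 the injured arrays had more probes above background in general, as given above, and the part of array brightness in these rises was not tested. With normexp and spots of aberrant local background left out, 1 of the 10 importers rose and 0 fell, where 4285 of all probes rose and 4115 fell. In Dying against Sham, where 3764 of all 25629 tested probes rose and 7338 fell, 4 of 9 importers rose and 1 fell, Slc39a7, a zinc channel of the endoplasmic reticulum, at -1.62 (SE 0.50, limma adjusted p 0.0318, 2 of 2 lower). That fall of Slc39a7 was called under 9 of 22 alternatives and under none of the 7 other scalings and background corrections. In Surviving against Sham, where 1742 of all 26910 rose and 3050 fell, 2 of 10 rose and 0 fell. Among these risers, Slc39a11 and Slc39a5 in both comparisons, and Slc39a1 in Dying against Sham, had no Sham array well above background. They met the filter there through the injured arrays alone, so those calls also lean on the group where they are high. The pair of Slc39a14 probes disagreed, at 1.95 and -2.63, and neither Slc39a10 nor Slc39a12 was above background by its brightest probe.

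Mtf1, the zinc sensor that drives metallothionein genes, read -0.44 and 0.27 on the Naive arrays, 0.53 and 0.89 on the Sham, -1.01 and -1.71 on the Surviving and -2.25 and -1.14 on the Dying arrays. Every injured array was below every uninjured array. Its transcript was called as lower in injured pools (limma adjusted p 0.00772, 4 of 4 lower), in Surviving against Sham (adjusted p 0.0414, 2 of 2 lower) and in Dying against Sham (adjusted p 0.0115, 2 of 2 lower). Only 1 of 2 Surviving and 1 of 2 Dying arrays was well above background, against all 4 uninjured ones, so the sizes of these differences are not given. In both comparisons with Sham, Mtf1 met the filter through the Sham arrays alone, so those adjusted p values lean on the group where it is high. The calls passed the threshold under 20, 10 and 14 of 22 alternatives, in that order, and those against Sham were both lost when arrays were scaled to the probes above background on all 8 arrays. Mt2A and Mt4 were not found under those names.

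Slc30a3 reaches synaptic vesicles through the adaptor complex AP-3, and of the 7 genes of the list found on the array, all tested in injured against uninjured arrays, 0 rose and 4 fell, with a median of -1.30, where 16.7% of all tested probes rose and 27.7% fell. The list as a whole was not tested. They were the AP-3 subunits Ap3b2 at -2.56 (SE 0.31), Ap3s1 at -2.52 (SE 0.31), Ap3m2 at -1.53 (SE 0.48) and Ap3m1 at -1.29 (SE 0.33), with limma adjusted p of 0.000876, 0.000923, 0.0331 and 0.0142. The AP-3 subunits Ap3b1 and Ap3d1 pointed the other way, at 1.32 (SE 0.71, limma adjusted p 0.163) and 1.57 (SE 0.89, adjusted p 0.184), and were not called. For Ap3b2, Ap3s1 and Ap3m1 all 4 injured arrays were below all uninjured arrays, and for Ap3m2 3 of 4 were. Ap3b2 is the neuronal form of its subunit. Slc17a7, which loads glutamate into the same vesicles, differed by -1.30 and was not called (limma adjusted p 0.114). Under 75th percentile scaling 2 of the 7 fell and 1 rose, where 6847 of all probes rose and 4333 fell. Slc30a3 itself, as given above, spanned both directions.

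**Figure D3:**
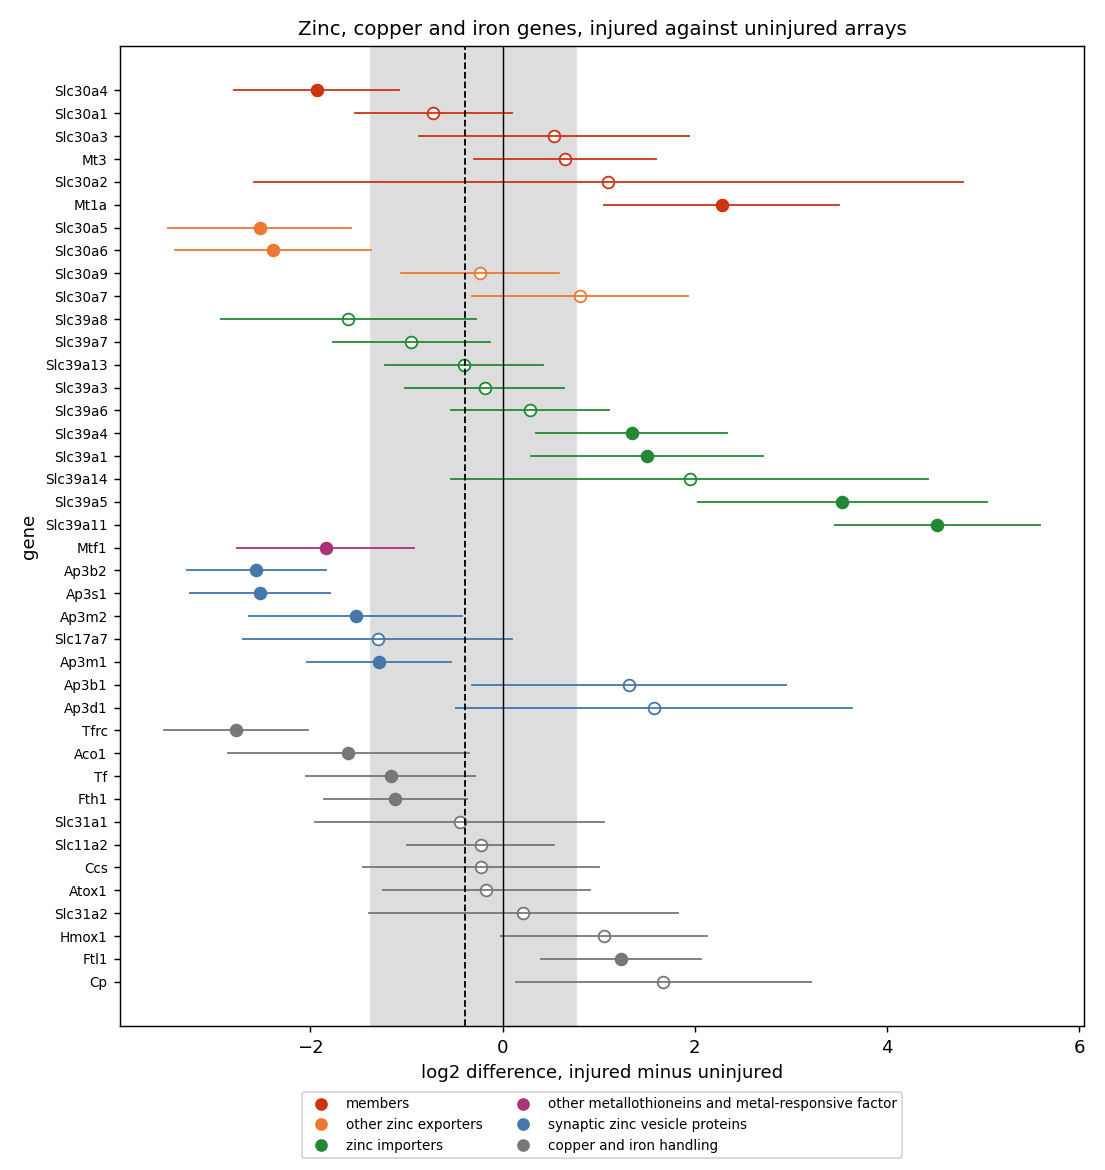
Log2 difference, injured minus uninjured, of zinc, copper and iron genes with 95% intervals, coloured by list. Filled points are past the threshold, the dashed line is the median of all tested probes (-0.39) and the grey band holds their middle quartiles. Tfrc lies lowest. The Slc39a11 point is drawn highest, but no uninjured array had it well above background, so its height is not a measured size.

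Metallothioneins are also induced by glucocorticoids, so genes known to respond to these hormones were read beside them. Of 8, all tested in injured against uninjured arrays, 0 rose and 2 fell, with a median of 0.04, beside the all-probe shares of 16.7% and 27.7%. These were Sgk1 at -1.64 (SE 0.38, limma adjusted p 0.00993) and Tsc22d3 at -1.40 (SE 0.38, adjusted p 0.0193). The list turned with the scaling: with 75th percentile scaling 4 rose and 1 fell, where 6847 of all probes rose and 4333 fell.

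Markers of other cells were read beside the same all-probe shares, 16.7% rising and 27.7% falling, and their part in the members' differences was not tested. Microglia and macrophage markers rose in 7 of 9 tested genes and fell in 0 (median 2.20), and their summed level over the array median was 127 and 285 on the Naive arrays, 275 and 257 on the Sham, 354 and 381 on the Surviving and 2033 and 1149 on the Dying arrays. Cd68 rose by 3.33 (SE 0.40, limma adjusted p 0.000861) and Tyrobp by 2.68 (SE 0.39, adjusted p 0.00172), each in 4 of 4 injured arrays. Itgam, also called as higher, had no uninjured array well above background and met the filter through the 4 injured arrays alone. Aif1 and Csf1r were not called and pointed lower. Their means were 4.81 and 1.49 in uninjured and 4.16 and 1.41 in injured arrays.

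Astrocytes are rich in metallothioneins, and their markers went the other way or were not called: 0 of 10 tested rose and 3 fell (Gja1, Slc1a2 and Glul; median -0.56, which turned to 0.04 with 75th percentile scaling). Their sum was 1136 and 1543 on the Naive arrays, 2026 and 1412 on the Sham, 836 and 918 on the Surviving and 1549 and 824 on the Dying arrays. Gfap, the filament of reactive astrocytes, differed by 1.06 and was not called (SE 0.57, limma adjusted p 0.165).

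Among oligodendrocyte markers, Mal fell by 3.01 (SE 0.35, limma adjusted p 0.000730), Mobp by 1.64 (SE 0.39, adjusted p 0.0113) and Cnp by 1.23 (SE 0.36, adjusted p 0.0245), each with 4 of 4 injured arrays lower, and Mog by 2.06 (SE 0.50, adjusted p 0.0123) with 3 of 4 below all uninjured ones. Mbp, Mag and Cldn11 differed by -0.30, -0.87 and 0.23 and were not called (limma adjusted p 0.615, 0.113 and 0.797). The drop of the 4 called markers runs with the fall of Slc30a4 across the slides, and its part in that fall was not tested. Endothelium markers rose in 3 of 6 tested genes (Flt1, Vwf and Cdh5) and fell in 0 (median 0.75). Flt1 had no uninjured array well above background and met the filter through the 4 injured arrays alone. Cdh5 had 1 of its 4 uninjured arrays well above background. Vwf, well above background on all 8 arrays, rose with 2 of 4 injured arrays above all uninjured ones. Their sums were 54.2 and 87.7 on the Naive arrays, 96.3 and 79.1 on the Sham, 64.5 and 62.5 on the Surviving and 263 and 136 on the Dying arrays. Tek was above background on no array.

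Of 11 pyramidal neuron markers, 11 were well above background on every array but Dying replicate 1, which had 10. Their sum was 9952 and 14994 on the Naive arrays, 19974 and 17314 on the Sham, 9859 and 9985 on the Surviving and 4737 and 5547 on the Dying arrays. In injured against uninjured arrays 0 of 11 rose and 2 fell, Snap25 at -2.95 (SE 0.50, limma adjusted p 0.00290) and Eno2 at -1.51 (SE 0.31, adjusted p 0.00663), with a median of -0.80. In Dying against Sham 4 of 11 fell and 0 rose, where 7338 of all 25629 tested probes fell. The order of these sums, Sham highest and Dying lowest, is also that of the Slc30a4 group means.

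**Figure D4:**
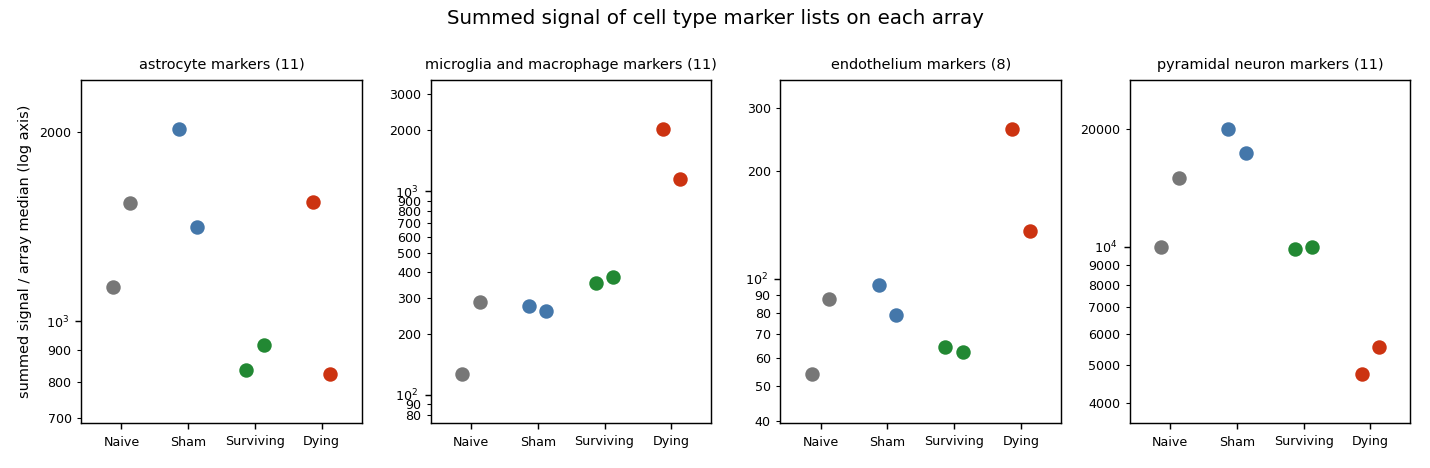
Summed level of 4 lists of cell type markers (signal over the array median, log axis) on the 8 arrays. The microglia sum reaches 2033 and 1149 in Dying and the pyramidal neuron sum is lowest there, at 4737 and 5547.

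Genes with a like pattern were looked up for each member well above background on at least 6 arrays, among 9162 candidate probes above background on all 8 arrays. The measure was the root-mean-square difference in log2 level after each probe's mean was taken away. Near Mt3 lay Rps15a (0.0743) and Fau (0.0992), both transcripts of ribosomal proteins. Those distances are small beside the SD of Mt3 over the arrays, 0.63. Slc30a4, with an SD of 1.20, was closest to Armcx2 (0.120), RGD1311958 (0.130) and LOC619393 (0.181). Mt1a, over the 7 arrays with a value and 9163 candidates, was closest to Ptpn11 (0.259), Tsn (0.299) and Eif4ebp1 (0.328), with an SD of 1.32. Slc30a1 had RGD1559931 (0.168), Lgals8 (0.182) and Tbn (0.183) nearest, and Slc30a3 had Abo (0.288), Prss2 (0.292) and LOC688274 (0.306). For Slc30a1 and Slc30a3 the SD over arrays was 0.61 and 0.89, so their nearest probes were less close for their spread than those of Mt3 and Slc30a4.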

How the data were processed

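RNA from 8 pools of CA3 neurons, 2 in each of 4 groups, was measured on 1-colour Agilent arrays. The deposited array files hold signals in intensity units, background subtracted within the array by Agilent Feature Extraction 9.1.3.1, and other columns that mark spots, per the file headers. The authors also deposited a table of signal values, scaled in GeneSpring, used as an alternative.

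After removal of non-uniform spots, signals were averaged per probe, divided by the array median, floored at 0.01 and taken to log2. limma 3.58.1 (R 4.3.3) fitted 4 group means and 5 contrasts over all probes, with Benjamini-Hochberg adjustment within a contrast and a threshold of 0.05. Python 3.11.15 with pandas 2.3.3 and matplotlib 3.10.9 did the rest. The steps were tested on simulated data.

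The text names every member probe. From each of 11 gene lists it takes, by the brightest probe, up to 5 genes past the threshold per contrast and otherwise the 2 of smallest unadjusted p, and gives up to 3 genes of like pattern per member. Of 104 list genes, 9 were found through the RefSeq table and 3 not at all. Members and lists were chosen with earlier results of these data known. 22 alternative settings were run, of which the RefSeq median and normexp without aberrant spots were added after seeing the data.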

Additional observations from a re-analysis of the deposited data

Results flagged for a closer look

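The Mt1a probe A_43_P13297 had a spot on Dying replicate 1 that the array software marked as non-uniform, so the comparisons do not use it. Its level there was 9.74, above the highest uninjured value of 6.67 and above the other injured arrays, of which the highest read 8.77. It was singled out because a signal above that of the control arrays stands in data the comparisons leave out. A non-uniform spot has pixels that vary more than the software allows, so the value is a rough one. With such spots included, Mt1a differed by 2.62 between injured and uninjured arrays (limma adjusted p 0.00481) in place of 2.28 (0.0116), and over its 21 alternatives the limma adjusted p ran from 0.00114 to 0.344.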

How the results depend on the processing

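Of the 22 alternatives, the rise of Mt1a in injured arrays had the same direction in all 21 that give it a value (1.94 to 3.996) and passed the threshold in 20, and the fall of Slc30a4 in all 22 (-2.19 to -0.65) and passed it in 21. Both calls were lost with normexp, which called 0 of all probes in every contrast: a few spots of extreme local background pulled its fitted background mean to -543 on Naive replicate 1 and -303 on Dying replicate 1. With those 2 and 4 spots left out, an alternative chosen after seeing the data, the means were -1.34 and 3.05, and both calls held, at 3.36 and -0.91. The fall of Slc30a4 in Dying against Sham passed the threshold in 20 of 22, and was lost with normexp and without Sham replicate 1.

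The limits are these. Slide and injury go together, each group has 2 arrays, and Mt1a has a single Dying value. Signal near background limits Slc30a2, the second Mt1a probe, Mtf1, Slc39a1, Slc39a5 and Slc39a11. The scaling sets the balance of directions: other scalings moved the median of all probes in injured against uninjured arrays by 0.13 to 0.77. Mt3 passed the threshold in 6 alternatives there. The cause of the changes below was not tested.

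Member probes called were 0 in Surviving against Sham, and 1 with 75th percentile scaling, quantile normalization, the median of probes above background on all 8 arrays (all-8 median) or the authors' values, 2 with normexp without aberrant spots, 3 with array weights and 4 with only the arrays compared. In Dying against Sham 1 was called, and 3 with those 4 scalings or normexp without aberrant spots, 2 with the RefSeq median, with non-uniform spots included or with probes above background on all arrays compared, and 0 with normexp. In injured against uninjured 2 were called, and 0 with normexp. Leaving out 1 replicate gave 0 to 1 in Surviving against Dying (1 without Dying replicate 2), 0 to 1 in Surviving against Sham, 0 to 5 in Dying against Sham (0 without Sham replicate 1, 5 without Dying replicate 2) and 2 to 3 in injured against uninjured. A lone array is assumed by limma to vary like the other groups. Without Dying replicate 2 no Dying value of Mt1a remains.

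These differences, none past the threshold, changed sign. Mt1a in Sham against Naive was -0.19 with 75th percentile scaling, -0.36 with quantile normalization, -0.35 with the all-8 median, -0.0396 with the RefSeq median, -0.34 with normexp without aberrant spots and -0.26 with the authors' values. Mt3 there was -0.0938 with quantile normalization, -0.0609 with the all-8 median and -0.0857 with normexp without aberrant spots. Slc30a1 in injured against uninjured was 0.0460 with the all-8 median. In Surviving against Dying, normexp gave 0.82 for Mt3, 0.44 for Slc30a1 and 0.87 for Slc30a3, and normexp without aberrant spots 0.12 for Slc30a1, -0.54 for Slc30a2 and 0.13 for Slc30a3. Slc30a2 there was -0.46 with quantile normalization, -0.16 with the all-8 median, -0.21 with the RefSeq median, -0.0871 with the authors' values and -0.19 with a floor of 0.1. Normexp gave -0.0687 for Slc30a3 in Dying against Sham and -0.12 for Slc30a2 in injured against uninjured.

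Leaving out 1 replicate gave, in Surviving against Dying, -0.64 to 0.39 for Mt1a, -1.40 to 0.0877 for Mt3, -0.51 to 0.14 for Slc30a1, -3.53 to 3.76 for Slc30a2 and -1.56 to 1.33 for Slc30a3. It gave -0.57 to 0.78 for Mt1a in Sham against Naive, -0.15 to 0.50 for Slc30a3 in Surviving against Sham, -1.15 to 1.74 for Slc30a3 in Dying against Sham, and in injured against uninjured -0.72 to 2.92 for Slc30a2 and -0.19 to 1.26 for Slc30a3.

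Over all probes, Surviving against Sham called 4792, but 12189 with only the arrays compared, 11612 with array weights, 2876 with probes above background on all arrays, 2521 with normexp without aberrant spots, 0 with normexp and 289 to 8083 without 1 replicate. Dying against Sham called 11102, but 7160 with normexp without aberrant spots, 7116 with probes above background on all arrays, 0 with normexp and 2986 to 13110 without 1 replicate. Injured against uninjured called 11566, but 7142 with probes above background on all arrays, 0 with normexp and 5005 to 11425 without 1 replicate. Surviving against Dying called 0, but 2 with the authors' values and 5636 without Dying replicate 2. Sham against Naive called 0, but 1 with quantile normalization, 3 with array weights, 263 with only the arrays compared and 43 without either Dying replicate. Of the calls in injured against uninjured 37.6% were higher, against 61.2% with 75th percentile scaling, 56.3% with quantile normalization, 68.4% with the all-8 median, 64.5% with the authors' values, 51.0% with normexp without aberrant spots and 16.8% with probes above background on all arrays, and 18.7% to 45.4% without 1 replicate. In Surviving against Sham 36.4% were higher, against 73.0%, 59.3%, 5117 of 6395, 75.3%, 57.6% and 6.26% in that order and 5.54% to 39.1% without 1 replicate, and in Dying against Sham 33.9%, against 59.2%, 56.3%, 68.6%, 63.0%, 43.1% and 15.3%, with 45.7% for the RefSeq median.

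The labels do not pair replicates. With a replicate block, 2 members were called in injured against uninjured, 1 in Dying against Sham and 0 in Surviving against Sham, and over all probes 10935, 10348 and 3376.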

Other observations

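Other probes described as metallothioneins were looked up in the file annotation after the members' values had been seen. Probe A_42_P567267, for LOC682651, a predicted gene described as similar to metallothionein-2, read 5.81 and 6.73 on the Naive arrays, 6.63 and 6.36 on the Sham, 7.89 and 7.33 on the Surviving and 8.98 and 7.66 on the Dying arrays. Every injured array was above every uninjured one, as for Mt1a. It rose in injured arrays by a log2 difference of 1.58 (SE 0.42, limma adjusted p 0.0177, 4 of 4 higher) and in Dying against Sham by 1.83 (SE 0.59, adjusted p 0.0372, 2 of 2 higher). In Surviving against Sham it differed by 1.12 and was not called (limma adjusted p 0.210). A further probe, A_42_P665460, from an expressed sequence tag described as similar to metallothionein-I, went the other way. It read 8.66 and 8.63 on the Naive arrays, 9.17 and 9.09 on the Sham, 7.89 and 7.85 on the Surviving and 8.07 and 6.83 on the Dying arrays, and fell by 1.23 on the log2 scale in injured arrays (SE 0.37, limma adjusted p 0.0279, 4 of 4 lower). In Dying against Sham this probe differed by -1.68 and was called as lower (SE 0.52, limma adjusted p 0.0318, 2 of 2 lower). Its Surviving against Sham difference of -1.26 was not called (limma adjusted p 0.123). The files give no probe sequences, so what this probe binds was not checked.

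Metallothioneins also bind copper, and zinc shares carriers with iron. Of 16 genes of copper and iron handling, 12 were tested in injured against uninjured arrays, 1 rose and 4 fell (16.7% and 27.7% of all tested probes), with a median of -0.23 that turned to 0.37 with 75th percentile scaling. The transferrin receptor Tfrc, which takes up iron, read 5.05 and 5.60 on the Naive arrays, 5.98 and 6.11 on the Sham, 3.16 and 3.46 on the Surviving and 2.70 and 2.31 on the Dying arrays, and fell by 2.78 (limma adjusted p 0.000758, 4 of 4 lower). The subunits of ferritin, the iron store, went apart: Ftl1 rose by 1.23 (limma adjusted p 0.0251, 4 of 4 higher), while Fth1 differed by -1.12 (adjusted p 0.0238, 4 of 4 lower). Aco1 and Tf fell by 1.61 (limma adjusted p 0.0428) and 1.16 (adjusted p 0.0385), in 4 of 4 and 2 of 4 injured arrays below all uninjured ones. Of these, Tfrc passed the threshold under 21 of 22 alternatives, Ftl1 under 15, Fth1 under 11, and Aco1 and Tf under 8 each.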
